A study of Mus musculus with 6 samples.

Results

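Glycolysis splits glucose into pyruvate in the cytosol, and lactate dehydrogenase turns pyruvate into lactate so that the pathway can run without oxygen. Articular cartilage has no blood vessels, and its chondrocytes are known to live at low oxygen and to make much of their ATP in this way. Most steps are carried out by isozymes, products of related genes that catalyse the same reaction and that different cell types use in different proportions. The genes described here are 34 gene symbols for glucose carriers, glycolytic enzymes, the enzymes that set fructose 2,6-bisphosphate, lactate dehydrogenases, lactate carriers and pyruvate dehydrogenase kinases. They were found by symbol in a table of 33971 gene rows. They take up 35 rows because Aldoa stands in 2 of them.

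RNA sequencing was done on articular cartilage of wild-type (WT) mice at 2 months of age (3 libraries) and at 18 months of age (3 libraries). The labels give neither the strain nor the sex, no treatment or engineered allele is named for either group, and the study's methods speak of male mice. Nothing in the sources says whether a library came from 1 animal or from a pool, so the p-values measure only the spread between these libraries. The libraries held between 48171507 and 59085179 counts, and all 35 rows passed the filter on low counts, which left 20397 genes to be tested. Levels are given as the deposited FPKM, the fragments of a gene scaled by its length and by the fragments of its library, which can be compared between genes. Log2 fold changes set 18-month over 2-month cartilage and come from edgeR's quasi-likelihood test on the counts. The word called is used for genes with an adjusted p (Benjamini-Hochberg, over all genes tested) below 0.05 and a log2 fold change beyond 1 in either direction.

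The tissue label was compared with marker genes before anything else. A list of 16 chondrocyte markers took 7.54%, 8.31% and 8.87% of all counts in 2-month replicates 1, 2 and 3, and 0.846%, 0.196% and 0.195% in the 18-month replicates. All 16 were called lower, and Col2a1, the main collagen of cartilage, stood at 1411, 3359 and 1845 FPKM at 2 months and at 21.2, 12.8 and 12.9 FPKM at 18 months. A list of 14 neutrophil markers took 0.00172%, 0.561% and 0.0269% of the counts at 2 months and between 4.28% and 4.60% at 18 months, with 0 of 14 called by edgeR. Of these 14, 3 had an unadjusted p below 0.05, 12 were called by DESeq2, 13 by limma on log2(FPKM + 0.1), and 13 by edgeR without 2-month replicate 2. A list of 13 erythroid markers took 0.0248%, 0.674% and 0.0700% at 2 months and between 2.76% and 3.63% at 18 months, with 3 of 13 called higher, all 3 only without 2-month replicate 2 among the fits that left out a library. Of the 13, DESeq2 called 11, and limma and edgeR without 2-month replicate 2 called 13 each. No marker of these 3 lists was at 0 in all libraries of an age. Muscle markers took 0.00906% to 0.0177% at 2 months and 0.000842% to 0.000996% at 18 months, and B lymphocyte markers 0.00215% to 0.0521% and 0.102% to 0.112%. Osteoblast and osteocyte markers took 0.505% to 1.75% and 0.340% to 0.359%, and adipocyte markers at most 0.00264% in any library. The 95% Wilson intervals of these shares were at most 0.00803 points to either side and cover counting error only. In bulk tissue, fewer cells of a type and less RNA per cell cannot be told apart. Markers of other cells therefore moved with age beside every result below, and their part in those results was not tested. Xist, the RNA that coats the inactive X chromosome of female cells, was counted 88239 to 102417 times per young library but 11 to 30 times per aged library. The young libraries thus go against the male mice of the methods, and since this pattern follows age in all 6 libraries, sex and age cannot be told apart in any result.

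Among the 35 rows, 7 were called higher at 18 months and 12 lower, and 16 were not called. That is 54.3% of the rows, beside 36.3% of all genes tested. The 7 of 35 called higher stood beside a background of 14.9% of all genes tested, and the 12 called lower, 34.3% of the rows, beside 21.3%. The median log2 fold change was −0.54 over the rows and −0.02 over all genes tested. By FPKM, the 3 libraries of one age lay wholly above those of the other in 10 rows that were higher and 15 that were lower at 18 months, and overlapped in 10. This is 71.4% of the rows beside 68.4% of all genes tested (35.6% higher, 32.8% lower), so the share of rows with separate ages was close to the background. On TPM, where the FPKM of each library are rescaled to the same sum, 10 rows were wholly higher, 20 wholly lower, and 5 overlapped. No such share over all genes is given on TPM, so whether these 20 rows exceed the background was not tested. Genes at large also leaned lower on that scale. With limma on log2(TPM + 0.1), 5819 of 21539 genes were called lower and 3109 higher.

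**Figure D1:**
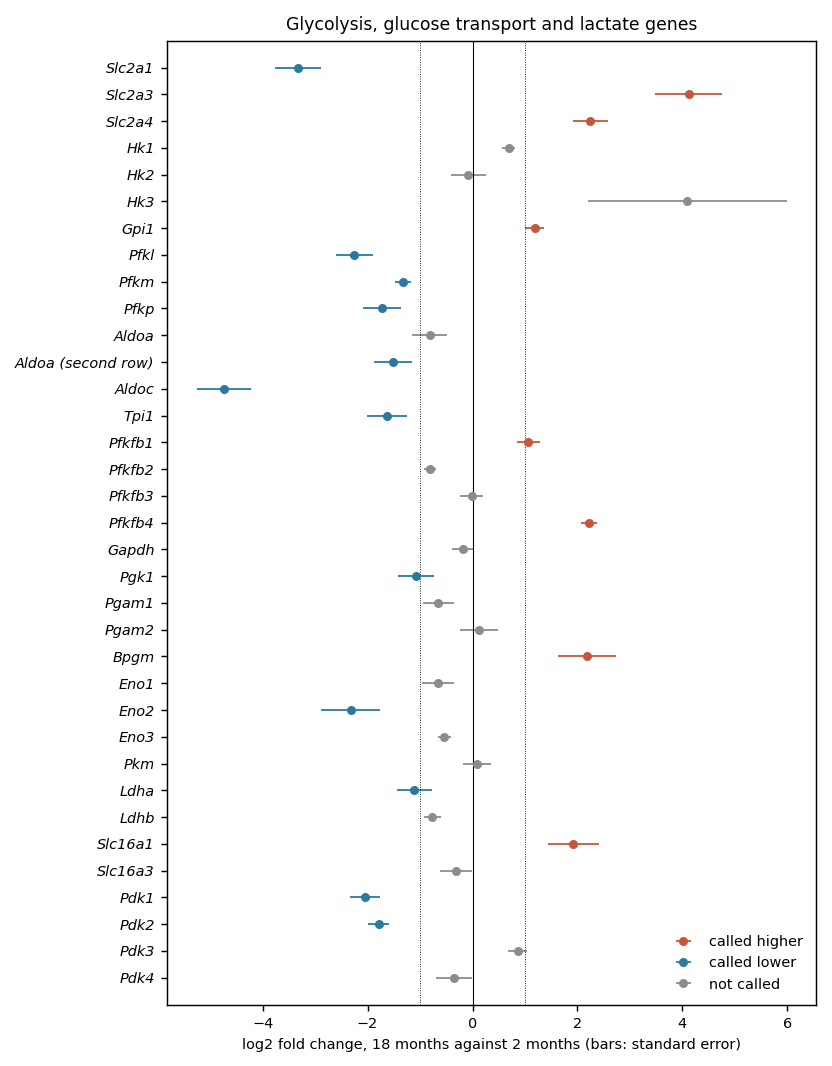
Log2 fold change of 18-month against 2-month cartilage (horizontal axis) for the 35 rows in the order of the pathway (vertical axis), with bars for the standard error, colours for called higher, called lower and not called, and dotted lines at −1 and 1. The 12 rows called lower reach from −1.08 (Pgk1) to −4.74 (Aldoc), the 7 called higher from 1.06 (Pfkfb1) to 4.12 (Slc2a3), and Hk3 has the longest bar.

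Along the pathway, of the 3 glucose carriers, 2 were called higher and 1 lower, and of the 3 hexokinases edgeR called 0. Hk1 alone among them had an unadjusted p below 0.05, and it passed the adjusted p (edgeR, 0.0070) but not the fold limit. A different hexokinase, Hk3, was called by DESeq2 and by limma on log2(FPKM + 0.1). From glucose 6-phosphate to the triose phosphates, 6 of 8 rows were called lower and 1 higher. The 6 include the Aldoa row with few counts, 20 to 63 per library, while the abundant Aldoa row was not called. Of the 4 enzymes of fructose 2,6-bisphosphate 2 were called higher and 0 lower. From glyceraldehyde 3-phosphate to pyruvate, 2 of 9 rows were called lower and 1 higher, the latter being Bpgm, for the enzyme that makes 2,3-bisphosphoglycerate. Of the 4 genes for lactate dehydrogenases and lactate carriers, 1 was called in each direction, and of the 4 pyruvate dehydrogenase kinases 2 were called lower. Among all genes tested, 14.9% were called higher and 21.3% lower. The differences between these groups of genes, and from those shares, were not tested.

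The libraries of an age differed among themselves, and in most called rows 2-month replicate 2 was the young library closest to the aged ones. In 18 of the 19 called rows it was the 2-month library nearest to the 18-month mean on the log2 scale of counts scaled for depth, as it was in 73.6% of all genes called. On the other side, 18-month replicate 1 was the aged library nearest to the 2-month mean in 16 of the 19, and in 60.2% of all genes called. These libraries also had the highest neutrophil and erythroid shares of the young group and the highest chondrocyte share of the aged group. Other markers did not place 2-month replicate 2 between the ages. Its osteoblast and osteocyte share was 1.75%, beside 0.505% and 0.585% in 2-month replicates 1 and 3 and at most 0.359% at 18 months. Its Col2a1 level, 3359 FPKM, was the highest of all libraries. Without 2-month replicate 2, 9 rows were called higher and 13 lower. Of the 21489 genes tested in that fit, 5007 were called higher and 4576 lower, against 3047 and 4354 of 20397 as reported. Of the 19 called rows, 10 were called in each of 9 other ways of fitting all libraries and with each library left out in turn. They were Slc2a1, Slc2a3, Slc2a4, Pfkl, Pfkm, Pfkp, Aldoc, Pfkfb4, Pdk1 and Pdk2. The share of all called genes that kept their call in every fit is not given here.

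Promoter sequences were available from RefSeq (GRCm38.p6) for 32 of the 34 symbols, in windows of 300 bases from 250 before to 50 after the start site. They were searched on both strands for ACGTG and GCGTG, the core of the element that hypoxia-inducible factors bind, because many glycolytic genes are textbook targets of these factors. A match was found in 24 of 32 windows (75.0%), beside 53.8% of the windows of 16538 genes. The windows of the genes also held more G and C, with a median of 60.5% beside 58.0%. A match stood in 9 of 11 windows of genes called lower, in 3 of 5 of genes called higher and in 12 of 16 of genes not called. The 4 sequences below are the stretches before the first base of the gene in the deposited table, for the 2 largest falls and the 2 largest rises among called genes whose RefSeq start lay within 50 bases of that gene start. They are shown because these genes span both directions of change. Capitals mark the matches, the sequences run 5′ to 3′ along the gene's strand, and a match is a description of letters and not of a bound site.
Slc2a1, chr4:119108495-119108710, plus strand: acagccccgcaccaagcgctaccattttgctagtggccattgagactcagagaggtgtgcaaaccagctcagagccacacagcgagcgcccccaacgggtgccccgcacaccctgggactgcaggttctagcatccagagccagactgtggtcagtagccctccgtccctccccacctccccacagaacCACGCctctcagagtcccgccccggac
Pfkl, chr10:78009808-78010057, minus strand: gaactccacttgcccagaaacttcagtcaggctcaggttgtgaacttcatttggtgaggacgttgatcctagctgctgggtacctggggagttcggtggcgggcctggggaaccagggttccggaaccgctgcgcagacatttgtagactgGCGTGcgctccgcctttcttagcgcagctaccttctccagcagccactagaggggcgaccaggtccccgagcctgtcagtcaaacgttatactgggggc
Slc16a1, chr3:104638414-104638663, plus strand: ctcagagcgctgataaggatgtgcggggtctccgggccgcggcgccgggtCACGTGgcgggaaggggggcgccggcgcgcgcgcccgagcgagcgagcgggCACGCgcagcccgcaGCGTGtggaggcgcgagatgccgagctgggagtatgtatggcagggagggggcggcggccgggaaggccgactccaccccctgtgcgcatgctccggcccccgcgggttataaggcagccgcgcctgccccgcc
Gpi1, chr7:34230337-34230586, minus strand: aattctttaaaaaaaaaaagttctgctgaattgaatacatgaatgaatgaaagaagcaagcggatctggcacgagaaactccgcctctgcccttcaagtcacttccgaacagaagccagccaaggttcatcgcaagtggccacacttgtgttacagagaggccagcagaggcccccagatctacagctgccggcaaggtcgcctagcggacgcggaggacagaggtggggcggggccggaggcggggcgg
Of these, Slc16a1 held 4 matches, a pair of which overlap on opposite strands, Slc2a1 and Pfkl 1 each, and Gpi1 none. Slc2a1 and Pfkl were called lower, and Slc16a1 and Gpi1 higher.

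Glucose enters cells through facilitative carriers of the SLC2 family. Slc2a1 encodes GLUT1, the carrier of most proliferating and oxygen-poor tissues (ENSMUSG00000028645, chr4:119108711-119137983 on GRCm38). It stood at 84.8, 39.5 and 68.2 FPKM in 2-month replicates 1, 2 and 3 and at 10.1, 5.22 and 5.34 FPKM in 18-month replicates 1, 2 and 3. Every young library was above every aged one, with 2-month replicate 2 the lowest of the young. Its log2 fold change was −3.32 (SE 0.43, edgeR adjusted p = 0.0027). Slc2a3 encodes GLUT3, a carrier of high affinity known from neurons and blood cells. Its FPKM was 1.04, 4.40 and 1.03 at 2 months and 36.0, 38.8 and 40.6 at 18 months, with no overlap and with 2-month replicate 2 the highest of the young libraries. The log2 fold change of Slc2a3 was 4.12 (SE 0.64, edgeR adjusted p = 0.0044), and 5.11 without 2-month replicate 2. Slc2a4, for the insulin-responsive carrier GLUT4, was low in all libraries, at 0.743, 1.29 and 0.698 FPKM at 2 months and 3.15, 5.03 and 5.36 FPKM at 18 months. It too was separated by age, with a log2 fold change of 2.25 (SE 0.33, edgeR adjusted p = 0.0038).

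The carriers were also compared by the share of each in the summed FPKM of the step, which does not depend on the scaling of a library. Slc2a1 made up 97.9%, 87.4% and 97.5% of the 3 carriers at 2 months and 20.6%, 10.6% and 10.4% at 18 months. Slc2a3 took 4.13% ± 4.85 (SD, n = 3) at 2 months and 77.1% ± 3.51 at 18 months. The summed FPKM of the carriers overlapped between ages, at 86.6, 45.2 and 69.9 at 2 months and 49.2, 49.1 and 51.3 at 18 months. The FPKM of all genes sum to more in the aged libraries, and rescaled to TPM, the same sum in every library, the carrier totals were separate, at 296, 168 and 256 against 137, 127 and 134 TPM. The carrier that led differed between the ages, and whether the totals were separate depended on this scaling. With 3 libraries against 3, the exact two-sided permutation test of a share cannot give a p below 0.1. That value was reached by 18 of the 28 isozyme shares compared, those whose ages did not overlap, and it is 0.156 after Benjamini-Hochberg adjustment over the 28.

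**Figure D2:**
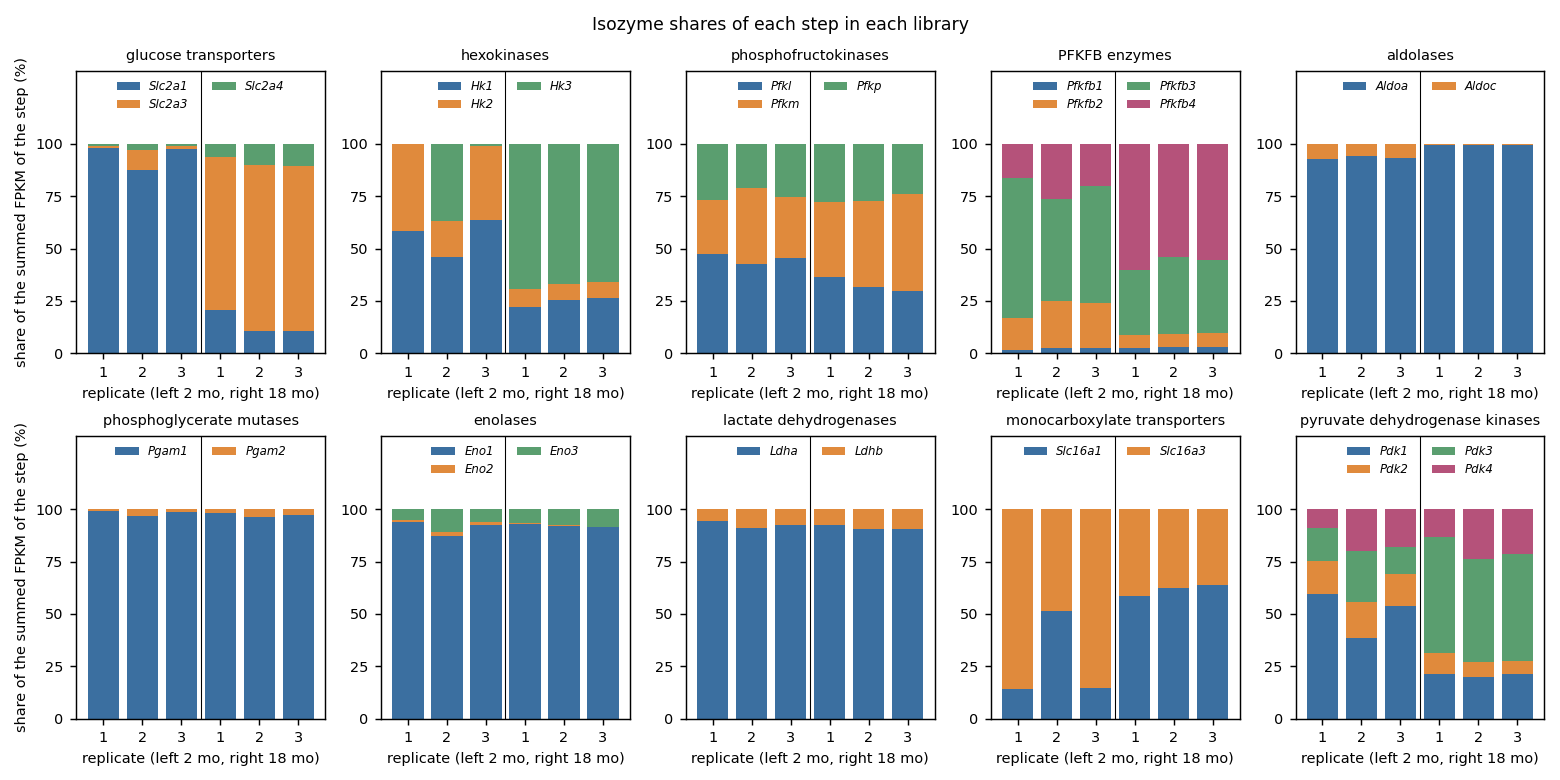
Share of each isozyme in the summed FPKM of its step (vertical axis, percent) in each library (horizontal axis, 3 of 2 months to the left of the line and 3 of 18 months to the right), 1 panel for each of 10 steps. The leading isozyme by mean share differs between the ages in 6 panels: glucose transporters, hexokinases, phosphofructokinases, PFKFB enzymes, monocarboxylate transporters and pyruvate dehydrogenase kinases.

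Hexokinases trap glucose in the cell as glucose 6-phosphate. Hk1, the isozyme found in most tissues, stood at 14.1, 13.1 and 11.8 FPKM at 2 months and at 24.5, 20.5 and 21.4 FPKM at 18 months. The ages did not overlap, and the log2 fold change of 0.69 (SE 0.13, edgeR adjusted p = 0.0070) passed the adjusted p but not the fold limit. Hk2, the inducible isozyme of muscle and of many growing cells, overlapped between ages, with 4.94 to 9.97 FPKM at 2 months and 6.02 to 9.57 at 18 months. Its log2 fold change was −0.08 (SE 0.33), and its sign turned with the scaling. Hk3, an isozyme known from white blood cells, had 0.0388, 10.6 and 0.180 FPKM at 2 months and 77.3, 53.3 and 53.3 FPKM at 18 months. Its counts were 8, 2276 and 38 in the young libraries and 19132, 12344 and 12501 in the aged ones. The ages were separate, yet the young libraries differed so widely that the log2 fold change of 4.10 had an SE of 1.9 and Hk3 was not called (edgeR adjusted p = 0.12). Without 2-month replicate 2 it was 8.98 and called, and it was also called by DESeq2 and by limma on FPKM or TPM.

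By share, Hk1 and Hk2 made up 58.5% and 41.3% of hexokinase FPKM in 2-month replicate 1 and 63.8% and 35.2% in replicate 3, with 0.161% and 0.978% left to Hk3. In 2-month replicate 2 Hk3 took 36.9%, and in the 18-month libraries 69.4%, 66.7% and 66.0%. The summed FPKM of the 3 hexokinases was 23.7 ± 5.12 (SD, n = 3) at 2 months and 90.6 ± 18.0 at 18 months, 3.82 times as high, with no overlap. Most of that sum at 18 months was Hk3. At 2 months the order of the libraries by Hk3 share was that of the neutrophil markers and also of the erythroid markers, with replicate 2 the highest and replicate 1 the lowest. At 18 months it was the order of neither list.

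Phosphofructokinase commits sugar phosphates to glycolysis, and its subunits are encoded by Pfkl (liver type), Pfkm (muscle type) and Pfkp (platelet type). All 3 were called lower. Pfkl (ENSMUSG00000020277) fell from 39.8, 20.6 and 30.3 FPKM to 9.39, 5.51 and 5.47 FPKM, a log2 fold change of −2.26 (SE 0.35, edgeR adjusted p = 0.0045). Pfkm was at 21.6, 17.6 and 19.4 FPKM at 2 months and 9.19, 7.15 and 8.57 FPKM at 18 months, with a log2 fold change of −1.32 (SE 0.16, edgeR adjusted p = 0.0021). Pfkp had 22.5, 10.2 and 17.1 FPKM at 2 months and 7.11, 4.70 and 4.36 FPKM at 18 months, with a log2 fold change of −1.72 (SE 0.37, edgeR adjusted p = 0.012). None of the 3 overlapped between ages, and in each the highest aged library was replicate 1. The counts of genes on the opposite strand that overlap Pfkm (Senp1) and Pfkp (Pitrm1) reached 272% and 97.5% of the counts of these genes, and the strand setting of the counting is not given in the sources used here.

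The summed FPKM of the phosphofructokinases was 83.9, 48.4 and 66.8 at 2 months and 25.7, 17.4 and 18.4 at 18 months, a mean 3.24 times as high in young cartilage and without overlap. The share of Pfkl was lower at 18 months, at 32.7% ± 3.52 (SD, n = 3) against 45.1% ± 2.43, and its ages were separate. The shares of Pfkm (30.4% and 41.2%) and Pfkp (24.5% and 26.2%) overlapped, and in 18-month replicate 1 Pfkl was ahead of Pfkm with 36.6% against 35.8%. Unlike the carriers and hexokinases, this step was called lower in each of its isozymes. By counts without length scaling Pfkp led at both ages, so the change of the leading isozyme in this step rests on the length scaling.

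Gpi1 encodes glucose 6-phosphate isomerase, the step between hexokinase and phosphofructokinase (chr7:34201330-34230336). It had 52.2, 38.9 and 45.7 FPKM at 2 months and 106, 113 and 112 FPKM at 18 months. Every aged library was above every young one, and the log2 fold change was 1.19 (SE 0.18, edgeR adjusted p = 0.0043). It was the only row between hexokinase and glyceraldehyde 3-phosphate to be called higher. Its call was lost in limma on log2(TPM + 0.1), where the median of all genes moved to −0.33.

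Aldolase cleaves fructose 1,6-bisphosphate. Aldoc, the isozyme best known from brain, had the largest fall of all, from 24.1, 8.57 and 17.6 FPKM to 0.912, 0.621 and 0.474 FPKM. The ages were far apart, with a log2 fold change of −4.74 (SE 0.52, edgeR adjusted p = 0.0018). Aldoa, the isozyme of muscle and most other tissues, was more abundant by far, at 317, 143 and 238 FPKM at 2 months and 163, 133 and 130 FPKM at 18 months. Its ages overlapped through 2-month replicate 2, and it was not called (log2 fold change −0.81, SE 0.34, edgeR adjusted p = 0.088). A second row of the symbol, ENSMUSG00000114515, lies next to the first on the same strand and had only 1.41, 0.968 and 1.03 FPKM at 2 months and 0.408, 0.462 and 0.387 FPKM at 18 months. It was called lower, with a log2 fold change of −1.52 (SE 0.36, edgeR adjusted p = 0.017), on counts that went down to 20 in a library. That call was kept in 7 of the 9 other ways of fitting all libraries and in 2 of the 6 fits without 1 library. The counts of Fam57b, which overlaps this second row on the opposite strand, reached 236% of those of the row. Aldoa made up 93.5% ± 0.768 (SD, n = 3) of the aldolases at 2 months and 99.5% ± 0.0970 at 18 months, and its shares did not overlap.

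Tpi1 encodes triose phosphate isomerase, which has no isozyme in the list. It stood at 328, 132 and 233 FPKM at 2 months and at 94.8, 73.7 and 72.1 FPKM at 18 months. The groups were separate, with 2-month replicate 2 the lowest of the young libraries. Its log2 fold change was −1.63 (SE 0.38, edgeR adjusted p = 0.016), and the call was lost without 18-month replicate 2 or without 18-month replicate 3, at adjusted p-values of up to 0.062.

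The PFKFB enzymes make and break down fructose 2,6-bisphosphate, the main activator of phosphofructokinase. Pfkfb4 had 3.55, 4.97 and 3.50 FPKM at 2 months and 22.8, 17.9 and 18.4 FPKM at 18 months. It had the smallest adjusted p of the 35 rows, with a log2 fold change of 2.22 (SE 0.15, edgeR adjusted p = 8.4e-04). Pfkfb1, for the liver isozyme, was low throughout, at 0.377, 0.50 and 0.432 FPKM at 2 months and 0.929, 1.02 and 0.953 FPKM at 18 months. Its log2 fold change was 1.06 (SE 0.22, edgeR adjusted p = 0.011), while the counts of Apex2 on the opposite strand reached 381% of its own. The call of Pfkfb1 was lost with limma on log2(FPKM + 1) and on log2(TPM + 0.1), and without 2-month replicate 1. Pfkfb3, the isozyme with the highest kinase activity relative to its phosphatase activity, overlapped between ages, with 14.7, 9.14 and 9.86 FPKM at 2 months and 11.6, 12.2 and 11.7 FPKM at 18 months. Its log2 fold change of −0.01 (SE 0.22) took either sign under other settings. Pfkfb2, of heart and kidney, was lower without overlap, at 3.28 to 4.18 FPKM and 2.08 to 2.38 FPKM, and its log2 fold change of −0.82 (SE 0.12, edgeR adjusted p = 0.0033) was inside the fold limit.

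Within this group Pfkfb3 led at 2 months with 67.1%, 48.7% and 56.3% of the summed FPKM. At 18 months Pfkfb4 led with 60.4%, 54.0% and 55.3%, against 16.2% to 26.4% at 2 months. Pfkfb3 at 18 months held 34.2% ± 3.03 (SD, n = 3), and Pfkfb2 went from 19.5% ± 3.96 to 6.43% ± 0.251. The summed FPKM was 19.4 ± 2.26 at 2 months and 34.8 ± 2.58 at 18 months. The gain in the sum was of about the size of the gain in Pfkfb4, whose mean went from 4.01 to 19.7 FPKM.

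**Figure D3:**
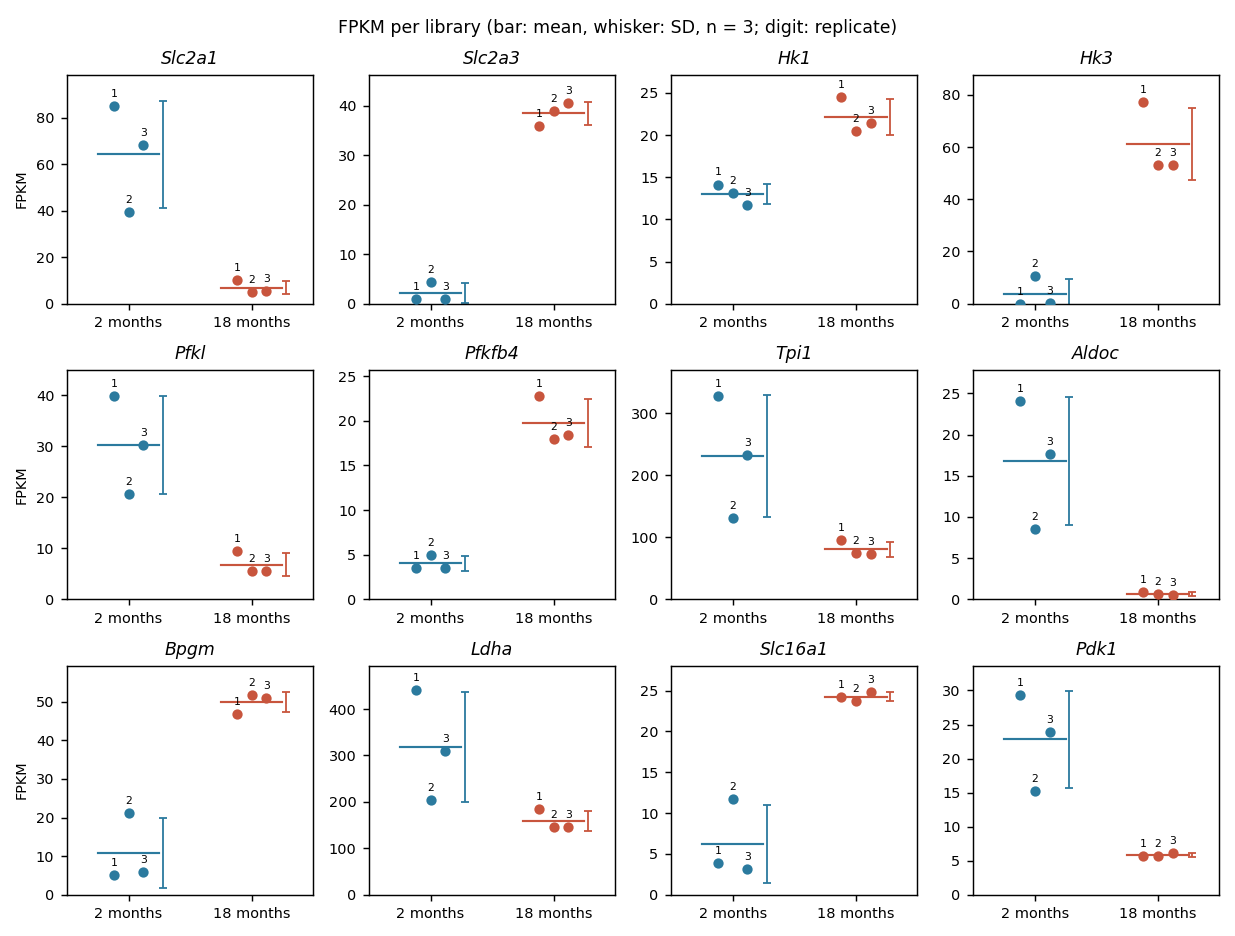
FPKM (vertical axis, linear and starting at 0) of 12 genes in the 3 libraries of each age (horizontal axis), with a digit for the replicate, a horizontal line for the mean and a whisker for the SD of 3 libraries. In Slc2a1, Pfkl, Tpi1, Aldoc, Ldha and Pdk1 the lowest young point is replicate 2, and in Slc2a3, Hk3, Pfkfb4, Bpgm and Slc16a1 the highest young point is replicate 2.

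Below the triose phosphates most isozyme shares overlapped between the ages. Gapdh, for glyceraldehyde 3-phosphate dehydrogenase, was listed at only 7.30 to 11.6 FPKM at 2 months and 8.41 to 9.27 at 18 months, with a log2 fold change of −0.19 (SE 0.21, edgeR adjusted p = 0.49). The 3 processed copies Gapdh-ps14, Gapdh-ps15 and Gapdh-ps16 together had 92.5% to 148% as many counts as Gapdh. The counts of Iffo1, which overlaps Gapdh on the opposite strand, reached 97.2% of those of Gapdh, so the level of Gapdh is uncertain. Pgk1, for phosphoglycerate kinase, had 419, 193 and 289 FPKM at 2 months and 186, 136 and 134 FPKM at 18 months. Its groups lay close to each other, at 193 FPKM for the lowest young and 186 for the highest aged library. It was called lower with a log2 fold change of −1.08 (SE 0.34, edgeR adjusted p = 0.041), but when a single library was left out it was called only without 2-month replicate 2. Of the 9 other ways of fitting all libraries, 5 called Pgk1.

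Phosphoglycerate mutase was almost wholly Pgam1 at both ages, with 98.0% ± 1.28 (SD, n = 3) and 97.2% ± 1.0 of the FPKM of the step. Pgam1 had 235, 116 and 184 FPKM at 2 months and 125, 122 and 117 FPKM at 18 months, and overlapped between ages (log2 fold change −0.65, SE 0.29, edgeR adjusted p = 0.11). Pgam2, the muscle isozyme, ranged from 2.35 to 4.87 FPKM over all libraries, with a log2 fold change of 0.12 (SE 0.37). Bpgm, for the enzyme that makes 2,3-bisphosphoglycerate, the regulator of oxygen release from haemoglobin in red cells, stood apart. It had 5.23, 21.3 and 5.77 FPKM at 2 months and 46.9, 51.8 and 50.9 FPKM at 18 months. The ages were separate, 2-month replicate 2 was again highest of the young, and the log2 fold change was 2.18 (SE 0.55, edgeR adjusted p = 0.021). Its libraries fell into the same order as the erythroid marker shares, which were 2.76%, 3.63% and 3.62% in 18-month replicates 1, 2 and 3. The neutrophil marker shares had that order too, with 4.28%, 4.60% and 4.56% in these aged libraries, so it was not particular to the erythroid list. How many other genes share this order was not tested. The call of Bpgm was lost without 2-month replicate 3, 18-month replicate 2 or 18-month replicate 3, at log2 fold changes of 1.9, 2.15 and 2.16. Without 2-month replicate 2 the log2 fold change was 3.08.

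Of the enolases, Eno1 made up 91.2% ± 3.37 (SD, n = 3) of the FPKM at 2 months and 92.1% ± 0.636 at 18 months, and Eno3, the muscle form, 7.51% and 7.50%. Eno1 had 151, 75.5 and 115 FPKM at 2 months and 90.2, 72.1 and 69.4 FPKM at 18 months, overlapped, and was not called (log2 fold change −0.66, SE 0.31, edgeR adjusted p = 0.12). Eno2, the isozyme of neurons, was a minor isozyme with 1.42, 1.37 and 1.85 FPKM at 2 months and 0.619, 0.172 and 0.190 FPKM at 18 months. Its libraries did not overlap, and the log2 fold change was −2.33 (SE 0.56, edgeR adjusted p = 0.018). That call was lost without 2-month replicate 3, 18-month replicate 2 or 18-month replicate 3, and the fold change was −3.13 without 18-month replicate 1. Eno3 was lower in every aged library, with a log2 fold change of −0.54 (SE 0.13, edgeR adjusted p = 0.016) inside the fold limit. Pkm, for the pyruvate kinase of most tissues, had 191, 113 and 152 FPKM at 2 months and 204, 155 and 154 FPKM at 18 months. Its ages overlapped and its log2 fold change was 0.08 (SE 0.27, edgeR adjusted p = 0.82).

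Lactate dehydrogenase is a tetramer of the products of Ldha, which favours lactate formation, and Ldhb. Ldha reached the highest FPKM of all 35 rows, with 442, 205 and 311 at 2 months and 184, 145 and 146 at 18 months. The groups did not overlap, but they came close, at 205 FPKM in the lowest young and 184 FPKM in the highest aged library. Ldha was called lower with a log2 fold change of −1.11 (SE 0.33, edgeR adjusted p = 0.036), and of the fits that left out a single library only that without 2-month replicate 2 called it. Of the 9 other ways of fitting all libraries, 6 called Ldha. Ldhb had 24.2 ± 3.65 FPKM (SD, n = 3) at 2 months and 15.1 ± 0.262 at 18 months without overlap, with a log2 fold change of −0.76 (SE 0.17, edgeR adjusted p = 0.013) inside the fold limit. The 2 genes kept much the same proportion, with Ldha at 92.6% ± 1.58 (SD, n = 3) and 91.2% ± 0.991 of their sum and overlapping ages. The sum itself was 469, 225 and 336 FPKM at 2 months and 199, 160 and 162 FPKM at 18 months, 1.98 times as high in the young mean.

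Lactate leaves and enters cells with a proton through the monocarboxylate transporters. Slc16a3 encodes MCT4, the carrier known for lactate export from glycolytic cells, and was at 23.9, 11.1 and 18.0 FPKM at 2 months and 17.2, 14.2 and 14.0 FPKM at 18 months. Its ages overlapped (log2 fold change −0.32, SE 0.31, edgeR adjusted p = 0.42). Slc16a1 encodes MCT1, of higher affinity and known from red cells among other tissues. It had 3.89, 11.7 and 3.12 FPKM at 2 months and 24.2, 23.7 and 24.8 FPKM at 18 months. The ages were separate and the log2 fold change was 1.92 (SE 0.49, edgeR adjusted p = 0.021), but among the fits without 1 library it was called only without 2-month replicate 2, where the log2 fold change was 2.69 and the adjusted p 7.4e-05. In the others the adjusted p reached 0.060. Slc16a3 made up 86.0% and 85.2% of the 2 carriers in 2-month replicates 1 and 3, 48.6% in replicate 2, and 41.5%, 37.5% and 36.1% at 18 months.

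Pyruvate dehydrogenase kinases switch off the entry of pyruvate into mitochondrial oxidation. Pdk1 had 29.4, 15.3 and 23.9 FPKM at 2 months and 5.70, 5.71 and 6.14 FPKM at 18 months. Every young library was above every aged one, and the log2 fold change was −2.06 (SE 0.29, edgeR adjusted p = 0.0032). Pdk2 was lower as well, at 7.76, 6.79 and 6.79 FPKM against 2.63, 2.21 and 1.70 FPKM, with the young libraries close together and a log2 fold change of −1.79 (SE 0.20, edgeR adjusted p = 0.0018). Pdk3 went the other way without passing the fold limit, from 7.79, 9.63 and 5.59 FPKM to 14.8, 14.3 and 14.6 FPKM (log2 fold change 0.86, SE 0.18, edgeR adjusted p = 0.011). Pdk4, the isozyme of fasting, overlapped at 4.34 to 8.04 FPKM and 3.54 to 6.86 FPKM, with a log2 fold change of −0.36 (SE 0.35).

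Pdk1 thus led at 2 months with 59.6%, 38.5% and 53.9% of the summed FPKM of the kinases, and Pdk3 at 18 months with 55.5%, 49.2% and 51.1%. The share of Pdk3 at 2 months was 17.6% ± 6.04 (SD, n = 3), and that of Pdk1 at 18 months 20.8% ± 1.03. The summed FPKM of the kinases was 44.4 ± 4.83 at 2 months and 28.1 ± 1.3 at 18 months. By counts without length scaling Pdk1 still led at 18 months, with 41.7% against 34.3% for Pdk3, so the order of the kinases in aged cartilage depends on the length scaling although the shift between ages has the same direction.

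**Figure D4:**
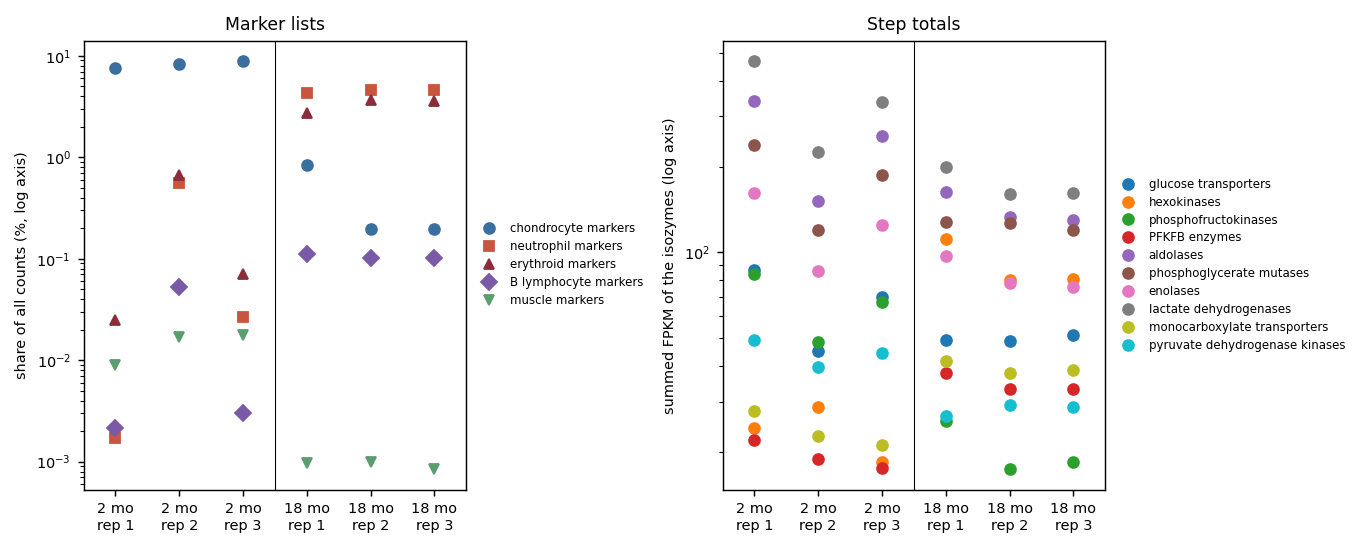
Left, share of all counts taken by 5 marker lists (percent, log axis) in each library; right, summed FPKM of the isozymes of each of 10 steps (log axis) in the same libraries, with 2-month libraries left of the line. Hexokinases, PFKFB enzymes and monocarboxylate transporters are higher in every aged library, phosphofructokinases, lactate dehydrogenases and pyruvate dehydrogenase kinases are lower, and the other 4 sums overlap on this scale but are lower in every aged library on TPM.

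Over the 10 steps, the sums of deposited FPKM were separated by age in 6 and overlapped in 4, the glucose carriers, aldolases, phosphoglycerate mutases and enolases. Divided by the TMM factors of edgeR they were again separated in 6. On TPM all 10 were separated, 3 of them higher and 7 lower at 18 months, and the 4 overlaps were thus bound to the scaling. In the last 3 of those 4, Aldoa, Pgam1 and Eno1 held most of the sum at both ages. The leading isozyme by mean share differed between ages in 6 steps, and in 4 steps by counts alone. With counts divided by the length of the longest coding transcript it also differed in 6, but the leading phosphofructokinase at 18 months was then Pfkp with 44.3%, and Pfkm held 25.1%.

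Other genes of glucose metabolism were taken from 4 further lists, with 55 genes listed, 53 in the table and 48 tested. Of these, 11 were called higher and 14 lower, 52.1% beside the background of 36.3%. Among 12 further isozymes and related enzymes tested, 5 were called in each direction. Adpgk, for an enzyme that phosphorylates glucose with ADP in place of ATP, went from 2.87, 10.1 and 3.43 FPKM to 57.8, 63.0 and 64.0 FPKM, with a log2 fold change of 3.45 (SE 0.51, edgeR adjusted p = 0.0037). Pgm1 and Galm, for phosphoglucomutase and galactose mutarotase, were called lower, with log2 fold changes of −1.0 (SE 0.25) and −1.92 (SE 0.22). The call of Galm was kept in all 9 alternatives and with each library left out, but that of Pgm1 in only 1 of the 9 and only without 2-month replicate 2. Others called included Ldhc, Tigar and Pgm2, higher, and Gapdhs and Ldhd, lower.

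Of 12 further carriers and partners tested, 3 were called higher and 5 lower, beside 14.9% and 21.3% of all genes tested. Bsg encodes basigin, the chaperone that brings MCT1 and MCT4 to the cell surface, and was called lower. It had 509, 294 and 367 FPKM at 2 months and 151, 150 and 144 FPKM at 18 months, with a log2 fold change of −1.48 (SE 0.26, edgeR adjusted p = 0.0058). Emb, for the related partner embigin, was called higher, at 11.9, 18.0 and 11.0 FPKM against 33.2, 35.4 and 32.9 FPKM (log2 fold change 1.25, SE 0.18, edgeR adjusted p = 0.0035). So the 2 partners of the lactate carriers moved in opposite directions. Slc2a10 fell from 12.9 ± 1.92 to 0.915 ± 0.219 FPKM (SD, n = 3), a log2 fold change of −3.90 (SE 0.24). Slc2a6 and Slc2a9 were called higher, and Slc2a5, Slc2a12 and Slc2a13 lower. Of these, Slc2a6 was called in only 2 of the 6 fits without 1 library, those without 2-month replicate 1 or 2, and Slc2a12 in 3, not without 2-month replicate 1 or 3 or 18-month replicate 2.

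At the entry of pyruvate into mitochondria 1 of 11 genes tested was called higher and 2 lower, beside 14.9% and 21.3% of all genes tested. Mpc2, a subunit of the mitochondrial pyruvate carrier, had 2.41, 3.02 and 2.47 FPKM at 2 months and 5.93, 6.24 and 6.01 FPKM at 18 months (log2 fold change 1.13, SE 0.10, edgeR adjusted p = 0.0013). Its call was kept in 7 of the 9 alternatives and with each library left out. Pcx, for pyruvate carboxylase, and Pdp1, a phosphatase that reverses the kinases above, were called lower, with log2 fold changes of −2.0 (SE 0.25) and −1.05 (SE 0.19). Pdp1 was called in only 4 of the 9 alternatives and not without 2-month replicate 1, 2-month replicate 3 or 18-month replicate 2. Of 13 genes of gluconeogenesis and glycogen tested, 2 were called higher and 2 lower, beside the same background. Those called lower were Pck1, which was not called without 18-month replicate 2 or 3, and Fbp2, which was called in only 5 of the 9 alternatives. Pygl, the glycogen phosphorylase of liver, rose from 12.6, 14.5 and 12.1 FPKM to 61.9, 63.0 and 62.8 FPKM, a log2 fold change of 2.18 (SE 0.11, edgeR adjusted p = 7.1e-04). Gyg, for glycogenin, which primes glycogen synthesis, was called higher with a log2 fold change of 2.53 (SE 0.19).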

How the data were processed

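Whole-gene read counts and FPKM of 6 articular cartilage libraries, 3 of 2 months and 3 of 18 months, were taken from 1 table. The authors deposited the counts as whole numbers without normalization. The FPKM values were deposited by the authors too, scaled by gene length and library size. The submitters' processing notes name cutadapt 1.9, HISAT2 2.0.4, UMI-tools, StringTie 1.3.4d, DESeq2 and edgeR, without saying which step each served. Libraries were poly(A)-selected and strand-specific, with molecular identifiers in the adapters. The counting program, the genome build and the annotation are not given in the sources used here. The lengths behind the FPKM were inferred: the length implied by count and FPKM was a constant multiple of the exon union of each GENCODE M21 gene, within 2% for at least 98.7% of genes with 500 or more counts. Of the 35 rows, 27 had the coordinates of GENCODE M21 on GRCm38, and gene positions are given only for such genes; promoter windows are positions of RefSeq on GRCm38.p6. Annotation columns were not used, and 0 columns of values were left out.

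The count test was edgeR 4.0.16 under R 4.3.3 (TMM, filterByExpr, quasi-likelihood F test, no replicate block) over 20397 genes, with Benjamini-Hochberg adjustment and the limits 0.05 and 1 (log2). Standard errors are the fold change divided by the root of F. The age groups and sample names came from the titles of the samples. Isozyme shares were computed in each library from FPKM and tested by an exact two-sided permutation test over libraries. The second Aldoa row was left out of the shares. Alternatives were no filter, median-of-ratios size factors, total counts alone, TMM without the 100 most abundant genes, DESeq2 1.42.0, limma 3.58.1 on log2(FPKM + 0.1), log2(FPKM + 1) and log2(TPM + 0.1) (mean FPKM 0.1 or more), a replicate block, each library left out, and shares by counts. Shares by the longest coding transcript and step totals by TPM and by TMM factors were added after seeing the data, and so was the count of the library nearest to the other age. Figures were drawn with matplotlib 3.10.9.

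The genes, lists and motifs were chosen with earlier results of these data known. Per-library FPKM are given for each called gene and for the leading isozyme of each step, and for others where the text compares them. From other lists at most 3 called genes with the highest mean FPKM are described with values, and some genes of these lists are not reported here. Library pairs of one age differed by 6.32 to 48.7 times the counting noise, the least between 18-month replicates 2 and 3. None agreed within counting noise, so none were merged, which does not show that they came from separate animals. Intervals cover counting error only.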

Additional observations from a re-analysis of the deposited data

How the results depend on the processing

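The 35 rows were refitted in 9 other ways with all libraries and 6 times with 1 library left out. The direction and the call were as reported in 451 of them, the call was lost in 41 and gained in 10, and the sign turned in 23, always in genes that were not called. Without a single library, 2095 to 5007 genes were called higher, the most without 2-month replicate 2. Of the 35 rows, 7 to 13 were called lower, with 7 without 18-month replicate 2 and without 18-month replicate 3. Genes called lower were 2217 with limma on log2(FPKM + 1). Called genes that were higher made up 41.2% as reported, 50.6% and 57.8% with limma on FPKM at pseudocounts of 0.1 and 1, 34.8% on TPM and 52.2% without 2-month replicate 2. On TPM the median of all genes was −0.33 and that of the rows −0.89, with 6 called higher and 15 lower.

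The log2 fold change of Hk2 was 0.014 with total counts alone, 0.045 and 0.037 with limma on FPKM at 0.1 and 1, and −0.30 to 0.27 with a library left out. That of Pgam2 was −0.27 on TPM and −0.18 to 0.36 with a library left out, and that of Pkm −0.24 and −0.10 to 0.30. Gapdh ranged from −0.35 to 0.014 with a library left out. Pfkfb3 had 0.018 without a filter, 0.038 with median-of-ratios factors and with DESeq2, 0.069 with total counts alone, 0.00018 with TMM without abundant genes, 0.11 and 0.096 with limma on FPKM, 0.029 with the replicate block and −0.15 to 0.26 with a library left out. The share of Aldoc differed by −3.89 points by coding length instead of −6.08, and that of Pdk3 by 25.8 points by counts instead of 34.3. That of Eno1, 0.956 points as reported, ranged from −0.947 to 2.26 with a library left out. The cause of these changes was not tested, beyond the construction of each alternative.

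The same replicate numbers appear at both ages, but same-numbered libraries did not deviate together (correlations 0.034, 0.044 and −0.024). With the replicate block 2523 genes were called higher and 3509 lower, and of the rows 7 higher and 10 lower, with Ldha and the second Aldoa row lost. Low counts limit Eno2, Pgam2, Pfkfb1 and the second Aldoa row, with under 500 counts in every library, and Hk3 in 2 young libraries. With limma on log2(FPKM + 1), which pulls low levels together, Eno2 was −0.95, Slc2a4 1.52 and Aldoc −3.31. Step totals were separate between ages in 10 steps by TPM instead of 6.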
